A study of Homo sapiens with 4 samples.

Results

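SAF-A peaks of human chromosome 17 are described here. The members were all deposited peaks whose summit, the position with the most overlapping fragments in a peak, lay on chromosome 17 of the hs1 assembly between 0.25 and 82 Mb and outside the alpha-satellite array at 23.9 to 27.5 Mb. These bounds leave 78.15 Mb, and 18517 of the 371353 peaks in all 4 lists were members. SAF-A was profiled by CUT&Tag, in which a transposase tethered through an antibody cuts out the DNA around the protein for sequencing. The cells were wild-type RPE1, an immortalised human retinal pigment epithelial line. There were 2 libraries of cells synchronised in mitosis and 2 of asynchronous cells, numbered replicates 3 and 4 in each group, and all 4 used the same anti-SAF-A antibody, 100000 cells per assay and an E. coli DNA spike-in. The labels do not give the synchronising agent, or whether replicates were separate cultures, so p-values reflect no more than the differences among these 4 libraries, which could be technical. Asynchronous cultures hold cells of every cycle stage, including some in mitosis. The assay pools cells, so fewer bound cells and less SAF-A per cell cannot be told apart.

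SAF-A, also called HNRNPU, is an abundant nuclear protein that binds RNA through one end and DNA through the other. It associates with chromatin-bound RNA in interphase nuclei and is known for its part in holding active chromatin open and for keeping XIST RNA on the inactive X chromosome. Most of it leaves chromosome arms when cells enter mitosis. Chromosome 17 is known as one of the gene-rich human autosomes.

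The members numbered 3929 and 5818 in mitotic replicates 3 and 4, against 4849 and 3921 in asynchronous replicates 3 and 4. They made up 4.98% and 5.07% of nuclear peaks in the mitotic libraries, against 4.80% and 5.13% in the asynchronous libraries. The whole lists were of unequal length, with 78908 and 114846 peaks in the mitotic libraries and 101132 and 76467 in the asynchronous libraries. The genome-wide background of each list, which stands for relative depth, was 1.17 and 1.79 fragments in the mitotic libraries and 1.38 and 1.17 in the asynchronous libraries. The longest list of each group was thus the deepest of that group, and counts of peaks were compared within a library. All summit heights are pileups, the number of fragments overlapping the summit, recovered from the authors' fold enrichment and p-value. The members' highest summits were 171 and 333 fragments in the mitotic libraries, against 266 and 197 in the asynchronous libraries, and the lowest were 6 and 7 fragments, against 6 and 6.

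The label of a gene-dense chromosome was checked by gene counts. RefSeq lists 1169 protein-coding genes on chromosome 17 in the GRCh38.p14 assembly, which ranked 5 of the 22 autosomes, on a chromosome that ranked 17 by length. Over the 22 autosomes, the mean number of peaks and the number of protein-coding genes moved together, with Pearson's r of 0.867 and Spearman's rho of 0.853, and longer chromosomes held more of both. Counted over the whole chromosome and not the members alone, chromosome 17 carried 4.23 peaks per protein-coding gene, which ranked 18 of 22. The median autosome carried 4.95, and the range ran between 2.44 on chromosome 19 and 7.35 on chromosome 18. No gene is named at a peak, since a gene annotation of the files' assembly was not used here.

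SAF-A peaks were nearly 2 times as dense on chromosome 17 as on the other autosomes together. Chromosome 17 held 50.3 and 74.4 peaks per Mb in mitotic replicates 3 and 4, against 25.8 and 37.5 on the other 21 autosomes. In asynchronous replicates 3 and 4 it held 62.0 and 50.2 peaks per Mb, against 33.1 and 24.999 on the other autosomes. The ratio was 1.95 and 1.98 in the mitotic libraries and 1.87 and 2.01 in the asynchronous libraries. On the log2 scale the ratio averaged 0.96 ± 0.044 (SD, n = 4), above 0 in 4 of 4 libraries, and the exact two-sided sign-flip permutation p was 0.13, the smallest that 4 libraries can give.

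Within the bounds of the set, chromosome 17 ranked 1 of 22 in all 4 libraries, with the other chromosomes counted whole. Counted whole as well, it held 49.6 and 73.4 peaks per Mb in the mitotic libraries and 61.6 and 50.1 in the asynchronous libraries, which in mitotic replicate 3 was just below chromosome 19. Within the bounds its mean of 59.2 ± 11.6 peaks per Mb (SD, n = 4) was close to the 57.5 of chromosome 19, a smaller and gene-rich chromosome, which held 49.8 and 69.7 in the mitotic libraries and 61.3 and 49.1 in the asynchronous libraries. The log2 ratio of chromosome 17 to chromosome 19 was 0.02 and 0.10 in the mitotic libraries and 0.02 and 0.03 in the asynchronous libraries. The third, chromosome 22, averaged 44.0, and the sparsest, chromosome 4, averaged 13.4. Peaks covered 18.2 and 29.2 kb per Mb of chromosome 17 in the mitotic libraries, against 9.36 and 14.7 kb per Mb on the other autosomes. In the asynchronous libraries they covered 22.2 and 16.8 kb per Mb, against 11.7 and 8.46. The excess lay in the number of peaks, since peak widths were alike, with medians of 311 and 332 bp on chromosome 17 and 311 and 328 bp on the other autosomes in the mitotic libraries, and 302 and 284 bp against 299 and 286 bp in the asynchronous libraries.

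**Figure D1:**
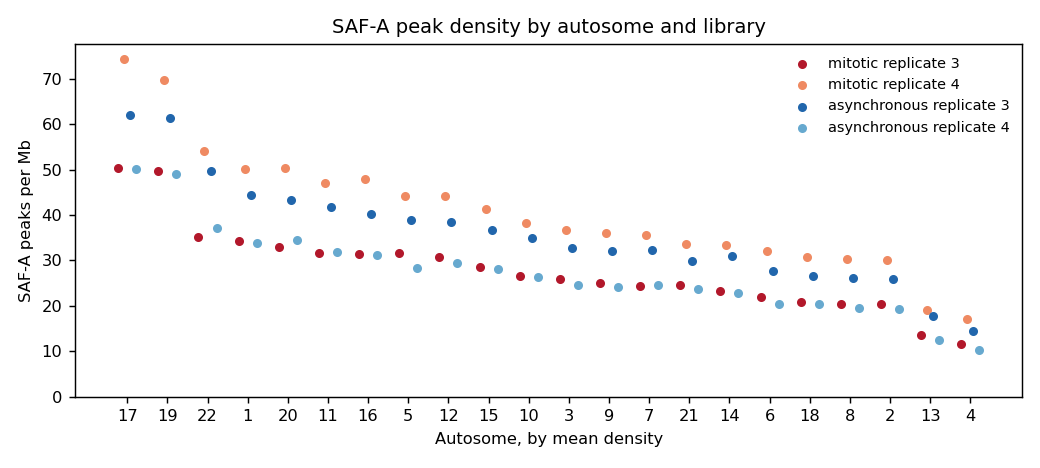
SAF-A peaks per Mb (vertical axis) on each of the 22 autosomes, ordered by mean density (horizontal axis), with 1 point per library. Chromosome 17, within the bounds of the set, lies at 50.3 and 74.4 in the mitotic libraries and at 62.0 and 50.2 in the asynchronous libraries, beside chromosome 19 and above the 44.0 that chromosome 22 averaged.

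The cell states did not differ detectably in how much of their SAF-A peak set lay on chromosome 17. The chromosome held 5.13% and 5.22% of autosomal peaks in the mitotic libraries, against 4.94% and 5.28% in the asynchronous libraries, so the asynchronous values lay on both sides of the mitotic values. The means differed by 0.0642 percentage points (exact two-sided permutation p = 1). With 2 libraries against 2, the smallest p this test can give is 0.33.

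The members' summits were slightly higher in fragments than those elsewhere but stood on a higher local background. The median summit was 12 and 16 fragments on chromosome 17 in the mitotic libraries, against 11 and 14 on the other autosomes. In the asynchronous libraries it was 14 and 13 fragments, against 12 and 11. The local background that the peak caller set around the members was 2.14 and 2.15 times the genome background in the mitotic libraries and 2.22 and 2.36 times in the asynchronous libraries. On the other autosomes it was 1.64 and 1.63 times in the mitotic libraries and 1.61 and 1.76 times in the asynchronous libraries. The authors' fold enrichment had lower medians on chromosome 17, at 3.75 and 3.51 against 3.96 and 3.63 elsewhere in the mitotic libraries, and at 3.55 and 3.74 against 3.78 and 3.91 in the asynchronous libraries. Peaks with the authors' −log10 q of at least 5 made up 25.7% and 33.2% of members in the mitotic libraries, against 26.8% and 33.2% on the other autosomes, and 26.0% and 26.9% in the asynchronous libraries, against 25.6% and 26.8%. The part of the local background in the density of called peaks was not tested.

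Along each arm, SAF-A peaks were denser in the distal segment than next to the alpha-satellite array. The distal 5 Mb of the short arm held 68.6 and 112.2 peaks per Mb in mitotic replicates 3 and 4 and 91.0 and 78.8 in asynchronous replicates 3 and 4. The 5 Mb of the short arm next to the array held 34.6 and 55.6 in the mitotic libraries and 45.2 and 37.8 in the asynchronous libraries. The distal 10 Mb of the long arm held 62.8 and 94.9 in the mitotic libraries and 79.8 and 63.2 in the asynchronous libraries. The 10 Mb of the long arm next to the array held 47.9 and 62.9 in the mitotic libraries and 53.8 and 42.7 in the asynchronous libraries. This order held for both arms in each of the 4 libraries, and dense bins also lay in the middle of the arms. The whole short arm, at 45.4 and 72.4 peaks per Mb in the mitotic libraries and 57.8 and 48.3 in the asynchronous libraries, was a little sparser than the long arm, at 52.4 and 75.3 and at 63.9 and 51.0.

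The bounds of the set cut through different surroundings. Of the stretches left out, the first 0.25 Mb held 26 and 44 peaks in the mitotic libraries and 33 and 27 in the asynchronous libraries, and the sequence beyond 82 Mb held 203 and 302 and then 280 and 246. The last Mb inside the bound at 82 Mb held 75 and 119 peaks in the mitotic libraries and 103 and 78 in the asynchronous libraries. The array of 3.6 Mb held 26 and 21 peaks in the mitotic libraries and 26 and 28 in the asynchronous libraries. Just inside the bounds of the array, the last Mb of the short arm held 1 and 4 peaks in the mitotic libraries and 4 and 4 in the asynchronous libraries, and the first Mb of the long arm held 24 and 31 and then 24 and 26. With the whole chromosome counted, the log2 density ratio differed by less than the spread between libraries.

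In bins of 1 Mb, the excess on chromosome 17 was spread over most of its length. Of 76 full bins, 74 had a peak in at least 2 libraries, and their mean number of summits over the 4 libraries had a median of 68.1, against 21.75 in the bins of the other autosomes. Of these 74 bins, 61 (82.4%) lay above the median bin elsewhere, and 29 (39.2%) lay above 78.05 summits, a level that 10.004% of bins elsewhere exceeded. The coefficient of variation over bins was 50.1% on chromosome 17, against 95.8% elsewhere. The highest bin elsewhere, with a mean of 194 summits, was above the highest on chromosome 17, with 111.75. The bins had a similar order in each library, with Pearson's r between pairs of libraries of 0.956 to 0.972 and Spearman's rho of 0.941 to 0.967 over the 74 bins, which share the same sequence and mappability.

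The densest bin, from 17000001 to 18000000 on the short arm, held 86 and 145 summits in mitotic replicates 3 and 4, against 124 and 92 in asynchronous replicates 3 and 4. The bin from 76000001 to 77000000, near the end of the long arm, held 91 and 133 in the mitotic libraries and 108 and 95 in the asynchronous libraries. Mid-arm, the bin from 51000001 to 52000000 held 86 and 128 in the mitotic libraries and 124 and 88 in the asynchronous libraries. The replicates of each state enclosed or overlapped those of the other in these 3 bins. The next 3, from 80000001 to 81000000, from 1000001 to 2000000 and from 39000001 to 40000000, had means of 103, 101 and 98.5 summits. Dense bins lay side by side. The 29 bins above the ninetieth percentile elsewhere formed 13 runs, the longest of 5 bins between 42 and 47 Mb, with 387 and 540 summits in the mitotic libraries and 475 and 381 in the asynchronous libraries.

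Some bins held few or no SAF-A peaks in either state. The bin from 53000001 to 54000000 had 0 and 0 summits in the mitotic libraries and 2 and 0 in the asynchronous libraries, and the next one, to 55000000, had 3 and 0 in the mitotic libraries and 0 and 0 in the asynchronous libraries. Both lie in a 3.20 Mb stretch of the long arm, from 52571600 to 55775293, without any recurrent region, that is, a merged region with a peak in at least 2 libraries. The bin from 34000001 to 35000000 held 1 and 0 summits in the mitotic libraries and 3 and 0 in the asynchronous libraries. The bin from 22000001 to 23000000, near the array, held 0 and 1 in the mitotic libraries and 4 and 0 in the asynchronous libraries. In all, 15 bins lay below the median bin elsewhere, in 6 runs of 1 to 5 bins, and that from 66 to 67 Mb, with a mean of 20.5 summits, was close to that median. The runs included 10 to 15 Mb on the short arm, with 55 and 84 summits in the mitotic libraries and 65 and 46 in the asynchronous libraries. The share of each bin that short reads can reach was not measured.

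**Figure D2:**
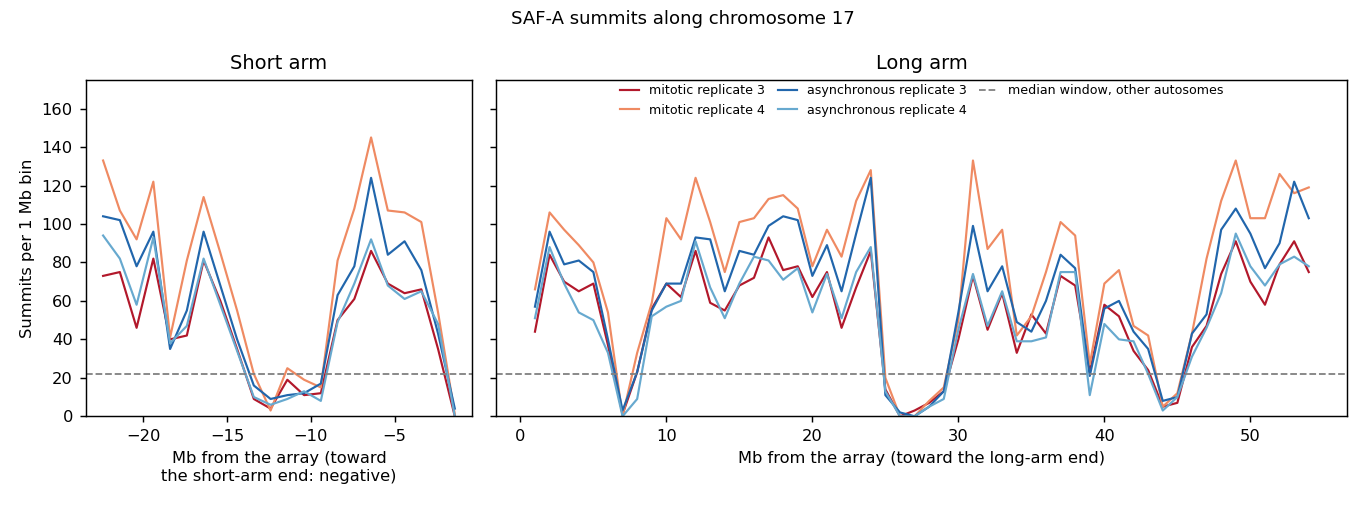
SAF-A summits per 1 Mb bin (vertical axis) by distance in Mb from the alpha-satellite array (horizontal axis), short arm left and long arm right, with 1 line per library. The lines rise and fall together, with few or no summits in the sparsest bins and a highest bin of 145 summits in mitotic replicate 4, and the dashed line marks the median of 21.75 for bins of the other autosomes.

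Recurrent SAF-A regions lay in clusters more densely on chromosome 17 than elsewhere. Neighbouring recurrent regions were 10.3 kb apart in the median, against 12.5 kb on the other autosomes. Runs of at least 5 recurrent regions with gaps of at most 10 kb numbered 146, or 1.87 per Mb, against 1750, or 0.621 per Mb, on the other autosomes. Chromosome 17 ranked second to chromosome 19, with 1.98 per Mb. The runs took in 996 of the 3664 recurrent regions (27.2%), against 19.8% elsewhere, and spanned 5.94% of the length, against 2.06%. Single clusters were no larger than elsewhere, with a median of 6 regions in both sets, a median span of 28.2 kb against 28.8 kb, and a maximum of 16 regions against 48. The long arm held 100 clusters and the short arm 46, or 1.83 and 1.95 per Mb. The number of clusters moved with the definition, between 8 and 230 over 10 alternatives, but the density relative to the other autosomes stayed between 2.26 and 3.26 times. A chromosome with denser peaks holds more such runs at a fixed gap, and how far density alone gives these counts was not tested.

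The cluster with the most regions ran from 36679278 to 36757665 and held 16 recurrent regions, 6 of them called in all 4 libraries. It had 12 and 16 peaks in the mitotic libraries and 11 and 12 in the asynchronous libraries. The cluster from 29621206 to 29689619 held 15 regions, 8 of them in all 4 libraries, with 12 and 17 peaks in the mitotic libraries and 14 and 16 in the asynchronous libraries. Both were occupied in both states. The cluster from 81927897 to 82010593, which runs past the bound at 82 Mb, held 15 regions, 6 of them in all 4 libraries. A cluster of 13 regions from 40551350 to 40619675 was made of less stable peaks, with 1 region in all 4 libraries and 5 and 15 peaks in the mitotic libraries, against 14 and 10 in the asynchronous libraries. The fifth, from 76400038 to 76468272, held 12 regions, 7 of them in all 4 libraries. All 5 lie on the long arm.

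Most SAF-A regions of chromosome 17 were called in a single library, and the strongest were shared. Merging the 4 lists wherever peaks overlapped by at least 1 bp gave 11757 regions. Of these, 68.8% were called in 1 library alone, 15.3% in 2 libraries, 7.13% in 3 libraries and 8.74%, or 1027 regions, in all 4. On the other autosomes the shares were 71.9%, 13.4%, 6.32% and 8.36% of 223778 regions. Regions in all 4 libraries were 1.98 times as dense per Mb as elsewhere (13.1 against 6.64), and regions in 1 library were 1.81 times as dense (103.6 against 57.2). By the share of its regions in all 4 libraries, chromosome 17 ranked 5 of the 22 autosomes, behind chromosome 19 with 11.9%.

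Counted as peaks, 26.98% and 18.1% of members in the mitotic libraries lay in regions called in all 4 libraries, against 26.7% and 18.3% of peaks on the other autosomes. In the asynchronous libraries these were 21.9% and 27.3% of members, against 20.9% and 27.8%. The difference from the other autosomes was positive in 2 of 4 libraries and averaged 0.121 percentage points (exact two-sided sign-flip permutation p = 0.75). Sharing followed peak strength. In the strongest decile of each list by q-value, 89.95% ± 3.02 of members lay in regions called in all 4 libraries, against 90.5% ± 3.41 on the other autosomes (SD, n = 4 libraries). In the weakest decile these were 3.45% and 2.47%.

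Libraries overlapped to a similar extent within and between the states, and the difference was not tested. Between 2 lists of the same state, 31.2% to 46.9% of the members of one overlapped a peak of the other, with a mean of 38.2%. Between lists of different states the share was 31.7% to 47.7%, with a mean of 37.9%. Between 122 and 157 peaks had the same start and end in a pair of lists over the whole genome, and none of those had the same fold enrichment.

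**Figure D3:**
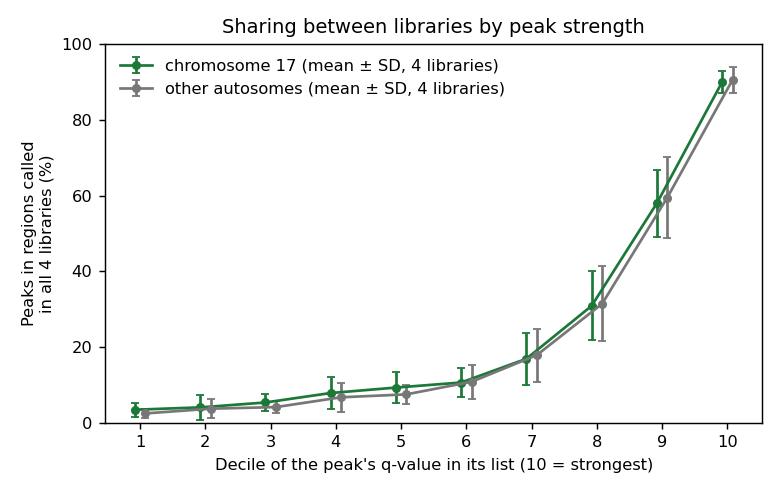
Percent of peaks in regions called in all 4 libraries (vertical axis) by decile of the peak's q-value within its list (horizontal axis, 10 is the strongest), for chromosome 17 and the other autosomes, as mean and SD over 4 libraries. Both curves climb together to 89.95% and 90.5% in the strongest decile.

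Bins dense in peaks also held more shared and higher regions. In the densest 18 bins, with 38.1% of the members' summits, a median of 10.96% of regions were called in all 4 libraries, against 5.97% in the sparsest 18 bins, with 6.66% of summits. The shared regions of the densest bins had a median log2 height of 0.16 relative to the genome-wide median of shared regions, against −0.41 in the sparsest bins. Over the 74 bins, Spearman's rho with density was 0.54 for the share and 0.41 for the height. These are bins of the same libraries, and the measures share the peak calls.

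The heights of the 1027 shared regions were compared between the states. Their median summit was 21 and 35 fragments in mitotic replicates 3 and 4, against 27 and 23 in asynchronous replicates 3 and 4. On the other autosomes it was 20 and 33 in the mitotic libraries and 25 and 21 in the asynchronous libraries. As log2 ratios to the other autosomes, the medians on chromosome 17 were 0.07 and 0.09 in the mitotic libraries and 0.11 and 0.13 in the asynchronous libraries. The groups did not overlap, and their means differed by −0.04 (exact two-sided permutation p = 0.33, the smallest possible). Without mitotic replicate 3 the difference was 0.00706, so its direction rests on that library. Computed the same way with all libraries, the groups did not overlap on 8 of the 22 autosomes, lower in mitotic on 3 and higher on 5. Against the spike-in the order of size was different, with the median shared summit at 3.21 and 3.06 ten-thousandths of the spike-in summit in the mitotic libraries and at 6.76 and 8.21 in the asynchronous libraries (exact two-sided permutation p = 0.33). The genome background moved the same way, at 0.179 and 0.156 ten-thousandths of the spike-in summit in the mitotic libraries and 0.345 and 0.416 in the asynchronous libraries, so this ratio is one of the whole libraries and not of chromosome 17. All later heights are relative to the library's own median over shared regions, so a change that touched all regions alike would not appear in them.

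Of the 1027 shared regions of chromosome 17, 1 differed between the states by limma with Benjamini-Hochberg adjustment at 0.05, where 0.059% of the 20334 shared regions of the genome were called. At an unadjusted p under 0.05, 87 regions (8.47%) stood out, where 8.9% of all shared regions did. Of the 87, 29 were higher in mitotic cells, where the genome's share was 4.08%, and 58 were lower, where it was 4.82%. The mitotic and asynchronous values did not overlap in 378 regions (36.8%), where 37.3% of all shared regions showed the same. The 378 were 139 higher and 239 lower in mitotic libraries, where the genome's shares were 17.1% and 20.2%. Taken over both directions, the shares of 8.47% and 36.8% are close to the background, but the chromosome's regions leaned further to the lower side. On the other autosomes, 774 of 18706 regions were higher and 893 lower at the unadjusted p. Without overlap, 3232 were higher and 3760 lower there. The difference in this lean was not tested. In 92.0% of the regions the difference between the states was within 0.5 on the log2 scale, and the differences ranged between −1.05 and 1.10. Shared regions need a call in every library, so this range leaves out regions called in 1 state only.

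The median difference over the chromosome's shared regions, mitotic minus asynchronous, was −0.06, against −0.02 on the other autosomes, and 42.3% of them were higher in mitotic, against 47.8% elsewhere. Chromosome 17 ranked second lowest of the 22 autosomes by this median, and the others ran between −0.08 on chromosome 22 and 0.04 on chromosome 5. The short arm (297 regions) and the long arm (730 regions) both had a median of −0.06. Shared regions in clusters had a median of −0.09 (294 regions) and those outside clusters −0.05 (733 regions). By quartile of height over the genome, 37.2% of the chromosome's regions in the lowest were higher in mitotic, against 52.4% elsewhere. In the next it was 49.0%, against 52.0%, in the one above 46.9%, against 49.3%, and in the top quartile 33.9%, against 37.4%.

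**Figure D4:**
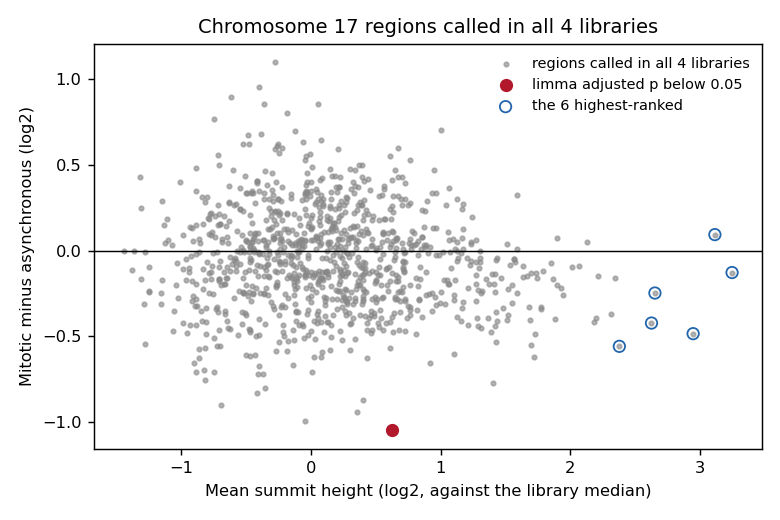
Difference in log2 summit height between mitotic and asynchronous libraries (vertical axis) against mean log2 height relative to the library median (horizontal axis), with 1 point per shared region of chromosome 17. Most points (92.0%) lie within 0.5 of 0, and the single region that passed the test lies at −1.05. Circles mark the 6 highest-ranked regions.

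The region that passed ran from 44397938 to 44399028 on the long arm. Its summit had 20 and 38 fragments in mitotic replicates 3 and 4, against 48 and 54 in asynchronous replicates 3 and 4. Relative to each library's median it averaged 1.08 ± 0.107 in mitotic cells and 2.25 ± 0.461 in asynchronous cells (SD, n = 2 each), and it was lower in both mitotic libraries than in both asynchronous libraries. The log2 difference was −1.05 with a standard error of 0.23 (limma adjusted p = 0.0258). The call was lost when any 1 library was left out, with adjusted p of 0.498 and 0.680 without mitotic replicate 3 or 4 and 0.0782 and 0.423 without asynchronous replicate 3 or 4. It was also lost with heights scaled to the genome background (adjusted p = 0.118) and with a prior without trend (adjusted p = 0.391), while the direction was the same in each of these.

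The 6 highest SAF-A regions of the chromosome were occupied strongly in both states, and none passed the test. The highest, from 48510878 to 48511794, had 163 and 333 fragments in the mitotic libraries, against 266 and 194 in the asynchronous libraries, and ranked 57 of the 20334 shared regions of the genome. It stood at 9.12 ± 1.37 times the library median in mitotic cells and 9.94 ± 0.991 times in asynchronous cells (SD, n = 2 each), and the groups overlapped. The second, from 950810 to 951874 near the end of the short arm, had 171 and 308 fragments in the mitotic libraries, against 187 and 197 in the asynchronous libraries. At 8.94 ± 0.554 and 8.43 ± 1.34 times the median, its groups overlapped as well.

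In the other 4 of these, both mitotic libraries were below both asynchronous libraries relative to the median, without overlap. Over the genome, 20.2% of all shared regions showed the same. In the top quartile of height it was 96 of the chromosome's 271 regions, and 1394 of 4682 on the other autosomes. The region from 1605069 to 1606271 had 126 and 222 fragments in the mitotic libraries, against 245 and 178 in the asynchronous libraries. Relative to the median this was 6.51 ± 0.302 in mitotic cells and 9.14 ± 0.936 in asynchronous cells (SD, n = 2 each), a log2 difference of −0.49 (limma adjusted p = 0.196). The region from 64492265 to 64493089 had 116 and 189 fragments in the mitotic libraries, against 177 and 139 in the asynchronous libraries, a log2 difference of −0.25. For the region from 40816357 to 40817178 the summits were 104 and 180 in the mitotic libraries, against 186 and 144 in the asynchronous libraries (log2 difference −0.42, limma adjusted p = 0.329). The region from 16974146 to 16974889 had 79 and 153 in the mitotic libraries, against 174 and 120 in the asynchronous libraries (log2 difference −0.56, limma adjusted p = 0.153). Shared regions over 2 times the median numbered 123 (12.0%, against 11.5% elsewhere), and those over 4 times numbered 14 (1.36%, against 1.95%). These shares were not tested.

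The remaining regions with the smallest p in each direction did not pass. The region from 40792961 to 40793579 had 22 and 44 fragments in the mitotic libraries, against 14 and 12 in the asynchronous libraries (log2 difference 1.10, standard error 0.30, limma adjusted p = 0.109). It lies close to the high region at 40816357, whose difference had the opposite sign. The region from 37587515 to 37588328 had 56 and 77 in the mitotic libraries, against 38 and 34 in the asynchronous libraries (log2 difference 0.70, limma adjusted p = 0.175). The region from 818863 to 819353 had 21 and 35 in the mitotic libraries, against 12 and 13 in the asynchronous libraries (log2 difference 0.95, limma adjusted p = 0.217). In these 3 regions, which were chosen by p, both mitotic values lay above both asynchronous values relative to the median. Over the genome, 17.1% of all shared regions showed the same. On the other side, the region from 64832304 to 64833042 had 36 and 75 fragments in the mitotic libraries, against 105 and 60 in the asynchronous libraries (log2 difference −0.78, limma adjusted p = 0.0894). The region from 41003701 to 41004757 had 17 and 33 in the mitotic libraries, against 47 and 35 in the asynchronous libraries (log2 difference −0.94, limma adjusted p = 0.109).

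**Figure D5:**
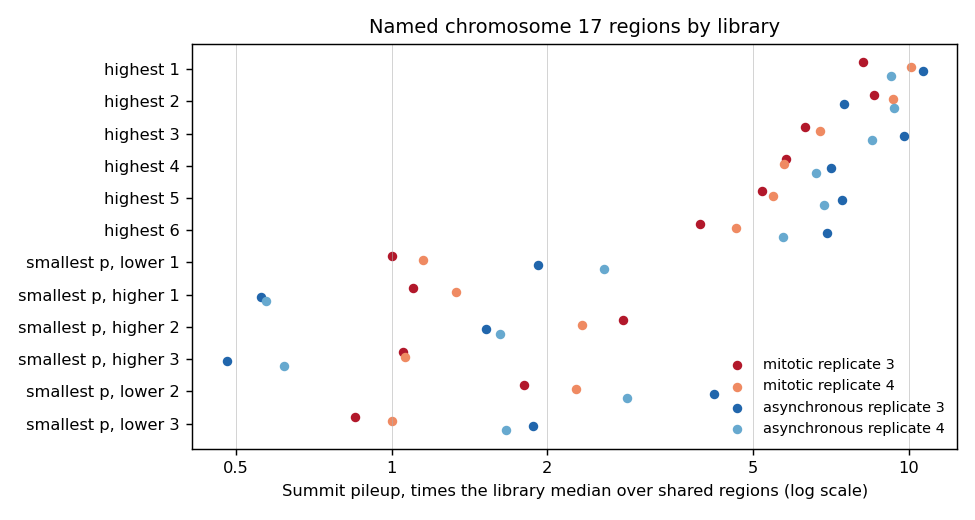
Summit height in multiples of each library's median over shared regions (horizontal axis, log scale) for the 6 highest shared regions of chromosome 17 and those with the smallest p in each direction, with 1 point per library. The mitotic and asynchronous points overlap in the 2 highest regions, and the region that passed the test stands at 1.08 in mitotic and 2.25 in asynchronous cells on average.

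In 1 Mb windows no part of the arms passed the test for a difference between the states. The covered bases of each window, divided by the total length in Mb that the library's peaks covered, were compared with limma over 2932 windows of the genome, of which 0% were called. On chromosome 17, 0 of 74 windows passed, 3 (4.05%) had an unadjusted p under 0.05, all 3 higher in mitotic, where 6.72% of all windows did, and the smallest adjusted p was 0.590. In 94.6% of the chromosome's windows the difference was within 0.5 on the log2 scale, against 84.8% elsewhere, and the median standard error was 0.13, against 0.24. The smallest p belonged to the window from 35000001 to 36000000, a bin at the genome's median density, with 254 and 254 bp per Mb in the mitotic libraries and 202 and 96.1 bp per Mb in the asynchronous libraries (log2 difference 0.81, standard error 0.29, limma adjusted p = 0.590). Its summits numbered 23 and 33 in the mitotic libraries and 23 and 9 in the asynchronous libraries. With a library left out, this window's log2 difference ran between 0.32 and 1.31, the highest without asynchronous replicate 3.

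The other windows with small p differed by less. The window from 12000001 to 13000000 averaged 227 bp per Mb in mitotic libraries and 142 in asynchronous libraries (log2 difference 0.64), and that from 37000001 to 38000000 averaged 904 and 743 (log2 difference 0.28). On the lower side, the window from 50000001 to 51000000 averaged 926 bp per Mb in mitotic libraries and 1073 in asynchronous libraries (log2 difference −0.21). The window from 69000001 to 70000000 averaged 417 and 504 (−0.26), and that from 57000001 to 58000000 averaged 485 and 571 (−0.23). None of these 5 passed.

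Regions called in both libraries of one state and in neither of the other made up a small share of the regions. There were 359 mitotic-only regions on chromosome 17 (3.05% of its merged regions, where the genome's share was 2.8%) and 222 asynchronous-only regions (1.89%, where it was 1.66%). The median summit of the mitotic-only regions was 12 and 16 fragments in mitotic replicates 3 and 4, the same as for all members in those libraries (12 and 16) and below the regions called in all 4 libraries (21 and 35). The asynchronous-only regions had 13 and 12.5 fragments in asynchronous replicates 3 and 4, close to the 14 and 13 of all members and below the 27 and 23 of the regions called in all 4 libraries. A region missing from a list can still hold fragments below the calling threshold, so these counts do not show absence of SAF-A.

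The highest mitotic-only region, from 16960777 to 16961105, had 37 and 67 fragments in the mitotic libraries. It lies close to the shared region at 16974146, which was among the highest of the chromosome. The next, from 47643805 to 47644418 and from 17055898 to 17056322, had 32 and 52 and then 37 and 41 fragments. The highest asynchronous-only region, from 46281703 to 46282033, had 51 and 34 fragments in the asynchronous libraries. Those from 1005623 to 1005857 and from 45773790 to 45774265 had 31 and 31 and then 46 and 27. Of the 6, only the regions at 16960777, 17055898 and 1005623 were called under all 6 alternatives run for them.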

How the data were processed

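SAF-A CUT&Tag was measured in 2 mitotic and 2 asynchronous RPE1 libraries, sequenced as paired reads of 150 bases per the labels' protocols. The submitters' processing notes name fastp, Bowtie2, bedtools, MACS2 and the build hs1, without parameters. Any control library and the use of the spike-in were not given in the sources used here. The authors deposited a separate peak list for each library, called without pooling. In these, the authors give each peak a ratio (its fold enrichment over local background) and the −log10 of its p-value and q-value from the peak caller, with q-values under 0.1 kept. The deposited score was not used. Other than for pileups, the authors' folds and q-values served to describe, rank and filter within single lists.

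Pileups were recovered by solving the fold and the Poisson p peak by peak. Whole numbers (within 0.05) came out for all of them under 200 and for 88.0% and 95.1% of the higher ones in the mitotic libraries and 96.1% and 97.3% in the asynchronous libraries. The smallest local background stands for depth; library totals were not used here. Peaks were merged at an overlap of 1 bp. Windows were fitted with limma 3.58.1 (trended prior, R 4.3.3) on log2 values with a pseudocount of 10, and shared regions on log2 pileup over the library median, over the whole genome with Benjamini-Hochberg adjustment; the scripts were tested on simulated data. Single values per library had exact two-sided permutation tests. Positions count from 1 on hs1. The members and lists were chosen with earlier results of these data known. The rule for named items took the 6 densest and 4 sparsest bins, the 5 clusters with most regions, the 6 highest shared regions, every window or region that passed plus the 3 with the smallest p per direction, and the 3 highest regions specific to each state. Alternatives were equal list lengths, only peaks past a −log10 q of 5, a common smallest peak width of 183 bp, a reciprocal overlap of 50%, other gaps, scalings, priors, pseudocounts and windows, the replicate block, and each library left out. The share of regions higher in mitotic was recomputed under these after seeing the data.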

Additional observations from a re-analysis of the deposited data

How the results depend on the processing

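The density ratio of chromosome 17 kept its direction under all 9 alternatives. It was log2 0.95 to 0.98 in those that count peaks per Mb. On the same log2 scale, the ratio of median summits per 1 Mb window, a different measure, was 1.63. The library medians averaged 66.9 summits on chromosome 17, against 21.5 on the other autosomes. The mitotic minus asynchronous share of peaks was −0.0845 points at a −log10 q of at least 5 and −0.104 to 0.232 with a library left out. The sharing difference from the other autosomes was −0.955 points at that threshold, −0.336 with equal list lengths and −0.103 to 0.894 with a library left out. The shift in shared heights was −0.0561 to 0.00706 with a library left out, above 0 only without mitotic replicate 3. Clusters numbered 8 at the stricter threshold, 54 at a reciprocal overlap of 50%, 15 and 230 at gaps of 5 and 20 kb, and 53 to 82 with a library left out. Mitotic-only regions numbered 100 at the stricter threshold and 517 to 643 with a library left out, and asynchronous-only regions 23 and 297 to 525. With 1 list fewer a region needs fewer calls. The genome's shares were not computed for these settings, so the counts cannot be read as particular to chromosome 17. On chromosome 17, shared regions passing numbered 0 at the stricter threshold, with background scaling and without trend, where 3, 0 and 0 of the genome's did. At the common width 2 passed, where 31 of 19659 over the genome did. This added the region at 64832304 (limma adjusted p = 0.0413). With a library left out, the region at 44397938 ran between −1.25 and −0.855. Windows of chromosome 17 passing numbered 0 under every alternative that kept all 4 libraries.

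Single items changed sign. With a library left out, the region at 48510878 ran between −0.347 and 0.0475, that at 950810 between −0.0589 and 0.241, and the windows at 1000001 between −0.285 and 0.0397, at 17000001 between −0.0560 and 0.0166, at 34000001 between −0.9988 and 0.539, at 39000001 between −0.0918 and 0.156 and at 76000001 between −0.0297 and 0.169. At the stricter threshold the windows at 12000001, 51000001 and 76000001 were −0.369, 0.0707 and −0.101, and with equal list lengths those at 34000001 and 51000001 were 0.0764 and 0.0535. The causes were not tested. The share of shared regions higher in mitotic was 33.6% at the common width, against 40.3% on the other autosomes. With a library left out it was 37.7% to 45.0%, against 43.9% to 49.2%, and with background scaling 39.2%, against 44.5%.

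Deviations of libraries with the same replicate number were nearly uncorrelated (correlation −0.049 over regions and −0.0003 over windows). Scaling within each library removes shifts of a whole library, so these values cannot tell whether the number pairs them. With the replicate block, 1 shared region and 0 windows of chromosome 17 passed. Over the genome, 14 of 20334 shared regions and 3 of 2932 windows did. Library totals were not used here, so what depth limits was not tested.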
